A study of Homo sapiens with 7 samples.

Results

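TBX10, NUDT8, NDUFV1 and ACY3 lie close together on chromosome 11, at 11q13, and were chosen by their measured levels because TBX10 had the highest rise of all genes tested after XMD892 and NUDT8, its neighbour, rose with it. The members are these 4 listed genes, of which 3 have a row by name among the 19775 genes of the table, and the same 3 are among the 16351 genes tested. ACY3 was not analysed here. The differences of TBX10 and NUDT8 from untreated cells chose the members, so they are given as a description with no test, while NDUFV1 keeps its test.

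The study sequenced poly(A) RNA of wild-type H1 cells, a widely used human embryonic stem cell line, grown in E8, a defined medium with insulin, FGF2 and TGFβ. Cells received XMD892, a kinase inhibitor used in a study whose title is about the kinase ERK5, at 1 µM in E8 over 12 h (1 library), 24 h (2 libraries) or 48 h (2 libraries), and untreated cells were kept in E8 for 48 h (2 libraries). No untreated cells of 12 h or 24 h were used here, so at those times treatment and time in culture cannot be told apart. The labels name 1 line and do not say that replicates were separate cultures, so p-values measure the spread between these libraries only.

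T-box proteins are transcription factors that bind DNA through a shared domain and direct cell fate in the embryo. TBX10 is a close relative of TBX1, and in mouse its misplaced expression causes cleft lip and palate. NUDT8 belongs to the NUDIX hydrolases, enzymes that cleave nucleoside diphosphates linked to another group, and the mouse protein breaks down coenzyme A in mitochondria. NDUFV1 is the subunit of respiratory complex I that binds NADH and the flavin cofactor. ACY3 removes the acetyl group from mercapturic acids, the end products of glutathione conjugation.

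In GENCODE 29 on GRCh38, TBX10 (ENSG00000167800.9) covers chromosome 11 from 67631303 to 67639560 on the minus strand and has 1 transcript. NUDT8 (ENSG00000167799.9) lies from 67627938 to 67629930, also on the minus strand, so that it follows TBX10 in the direction of transcription after a gap of 1372 bases. NDUFV1 (ENSG00000167792.12) lies from 67605653 to 67612554 on the plus strand, so that it and NUDT8 point toward each other across 15383 bases, in which the pseudogene DOC2GP lies. ACY3 (ENSG00000132744.7) lies upstream of TBX10 on the same strand, from 67642555 to 67650659, and ends 2994 bases before TBX10 starts. None of the 1499 runs of 50 bases in the TBX10 transcript, and none of the 1518 in NUDT8 transcripts, occurs in a transcript of another gene. For NDUFV1, 456 of 6031 such runs (7.56%) occur in transcripts of AP003385.3, C11orf72 or NSMCE3, the first 2 of which overlap NDUFV1, so its count is less sure than those of TBX10 and NUDT8.

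The promoter windows of the 3 measured genes are shown because NUDT8 has a start of its own between TBX10 and its own gene body. Each holds 250 bases before and 50 after the gene's start in RefSeq on GRCh38.p14, read 5′ to 3′ on the gene's strand, with motif matches in capitals. The TBX10 window is chr11:67639714-67640013 (minus strand), the NUDT8 window is chr11:67629888-67630187 (minus strand) and the NDUFV1 window is chr11:67606686-67606985 (plus strand). For TBX10 and NDUFV1 the RefSeq starts are not the GENCODE starts given above. The TBX10 window lies wholly upstream of the GENCODE gene, and the NDUFV1 window lies inside its GENCODE gene.
TBX10: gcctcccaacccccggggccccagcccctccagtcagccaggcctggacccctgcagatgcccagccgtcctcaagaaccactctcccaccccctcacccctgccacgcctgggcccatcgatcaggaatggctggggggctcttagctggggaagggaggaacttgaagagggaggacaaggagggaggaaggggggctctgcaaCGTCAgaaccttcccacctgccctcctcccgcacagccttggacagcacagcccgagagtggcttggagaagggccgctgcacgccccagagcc
NUDT8: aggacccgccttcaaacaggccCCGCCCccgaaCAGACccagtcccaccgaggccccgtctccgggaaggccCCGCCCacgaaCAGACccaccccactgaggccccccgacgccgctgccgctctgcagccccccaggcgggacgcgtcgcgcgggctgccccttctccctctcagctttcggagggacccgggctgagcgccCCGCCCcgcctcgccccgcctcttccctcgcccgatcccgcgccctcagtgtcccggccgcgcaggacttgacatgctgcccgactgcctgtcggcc
NDUFV1: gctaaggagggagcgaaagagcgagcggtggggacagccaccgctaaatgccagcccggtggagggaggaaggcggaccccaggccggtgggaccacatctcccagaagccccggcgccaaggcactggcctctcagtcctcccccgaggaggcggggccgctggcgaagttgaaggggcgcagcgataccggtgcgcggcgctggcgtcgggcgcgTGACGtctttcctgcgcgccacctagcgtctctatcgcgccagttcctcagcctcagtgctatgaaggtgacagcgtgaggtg

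The TBX10 window held 9 CpG dinucleotides, against a median of 14 over all 35116 promoters in the table, and 41.6% of promoters held fewer. The NUDT8 window held 34 CpG, more than 84.4% of promoters, and the NDUFV1 window held 30. GC content was 67.7% in the TBX10 window, 75.3% in NUDT8 and 68.3% in NDUFV1. The letters searched on both strands were the GC box GGGCGG, the CRE-type motif TGACG, the SMAD motif GTCTG, the T-box motif GGTGTGA and the T-box core GGTGT that it contains, the TATA box TATAAA, the CCAAT box, the E-box CACGTG, the AP-1 motif TGANTCA and the GATA motif AGATAA. The NUDT8 window held the GC box at 3 places, -228, -178 and -47 from the start, on the strand opposite to the gene, and 44.95% of all promoters hold at least 1. It also held the SMAD letters at 2 places, which 45.3% of promoters hold. The TBX10 window held the letters TGACG at 1 place, -44 from the start on the opposite strand, and the NDUFV1 window held it at 1 place, -33 from the start, against 24.6% of all promoters. The other letters were in none of the 3 windows, and the T-box core is in 37.4% of all promoters. A match describes letters only, and binding was not measured.

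Depth lay between 18528689 and 24148186 recovered reads per library, and values are read counts that the authors scaled by 1 factor per library, called normalised counts here. All 6 pluripotency markers listed were present in all libraries, with POU5F1 at a normalised count of 42265 after 12 h of XMD892, 58983 and 55747 after 24 h, 57249 and 67878 after 48 h, against 46006 and 67034 in E8. Of the 6, limma called 1 lower at 12 h and 24 h and 2 at 48 h, and none higher. Of all tested genes, 4.89% were called lower at 12 h, 7.56% at 24 h and 6.45% at 48 h. The shares called higher were 2.56%, 8.66% and 5.08%, so that none higher among 6 lies near that background. NANOG, a pluripotency factor, was lower at each time than in E8, by 1.02, 0.63 and 1.16 on the log2 scale at 12 h, 24 h and 48 h (limma, adjusted p = 0.001, 0.0057 and 1.6e-05; 0.08 at 24 h without 24 h replicate 1). PRDM14, a factor that maintains the pluripotent state, averaged 1147 ± 139 at 48 h and 1706 ± 86.9 in E8 and was called lower at 48 h (-0.58, adjusted p = 0.015, 0.2 without 48 h replicate 2). It was also called lower at 48 h than at 24 h (-0.65, adjusted p = 0.035), a call lost without any 1 of the 4 libraries of those times. Of 6 markers of differentiated cells, SOX1, a neural factor, averaged 95.5 at 48 h and 41.0 in E8 and was called higher (1.21, adjusted p = 0.012). That call was lost without 48 h replicate 2 (0.97) or E8 replicate 1 (0.94). GATA3 and TBXT, listed under its older symbol T, were too low to be tested, and both were lower in all XMD892 libraries than in E8. Their values rest on 1 to 9 reads per XMD892 library and 13 to 25 in E8. The share of all genes lower in each XMD892 library was not counted, so nothing is read from this. GATA3 had 6.44 after 12 h, 2.08 and 3.74 after 24 h, and 1.08 and 1.98 after 48 h, against 11.35 and 20.7 in E8. TBXT had 8.59 after 12 h, 9.37 and 4.68 after 24 h, and 6.48 and 5.95 after 48 h, against 17.5 and 12.4 in E8. The others were not analysed here. Whether the members' changes moved with these markers was not tested, and in these bulk samples a change in the share of cells and a change in RNA per cell cannot be told apart.

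TBX10 RNA was low in E8 and high in all XMD892 libraries. Its normalised count was 1656 after 12 h of XMD892, 864 and 1095 after 24 h, and 569 and 454 after 48 h, against 36.7 and 56.2 in E8. The lowest XMD892 library thus stood far above the highest E8 library, and the order of the groups was 12 h, 24 h, 48 h and E8 with no overlap. In recovered reads these values rest on 1543 after 12 h, 830 and 1171 after 24 h, and 527 and 458 after 48 h, against 42 and 68 in E8. The difference from E8 on the log2(normalised count + 1) scale was 5.16 ± 0.25 at 12 h (SE, 35.7-fold), 4.39 ± 0.21 at 24 h (21.0-fold) and 3.46 ± 0.21 at 48 h (11.0-fold). TBX10 ranked 1 of 16351 genes at all 3 times.

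NUDT8 followed the same order at a smaller scale. Its normalised count was 908 after 12 h of XMD892, 473 and 681 after 24 h, and 293 and 283 after 48 h, against 74.2 and 102 in E8. All XMD892 libraries again lay above both E8 libraries, and no groups overlapped. The log2 difference from E8 was 3.37 ± 0.25 at 12 h (10.4-fold), 2.69 ± 0.21 at 24 h (6.47-fold) and 1.72 ± 0.21 at 48 h (3.29-fold). NUDT8 ranked 7 at 12 h, 6 at 24 h and 40 at 48 h. TBX10 and NUDT8 were 2 of the 2283 genes (14% of those tested) with each XMD892 library above each E8 library, and 2 of the 158 (0.966%) in which the groups ran 12 h, 24 h, 48 h and E8 in descending order without overlap. Of all tested genes, 37.1% had the 12 h library above both E8 libraries, 29.8% had this for 24 h, and 27.3% for 48 h. A log2 difference of 1 or more was found in 3.24% of genes at 12 h, in 2.79% at 24 h and in 2.28% at 48 h. Since these values chose the pair, nothing is read from those counts.

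**Figure D1:**
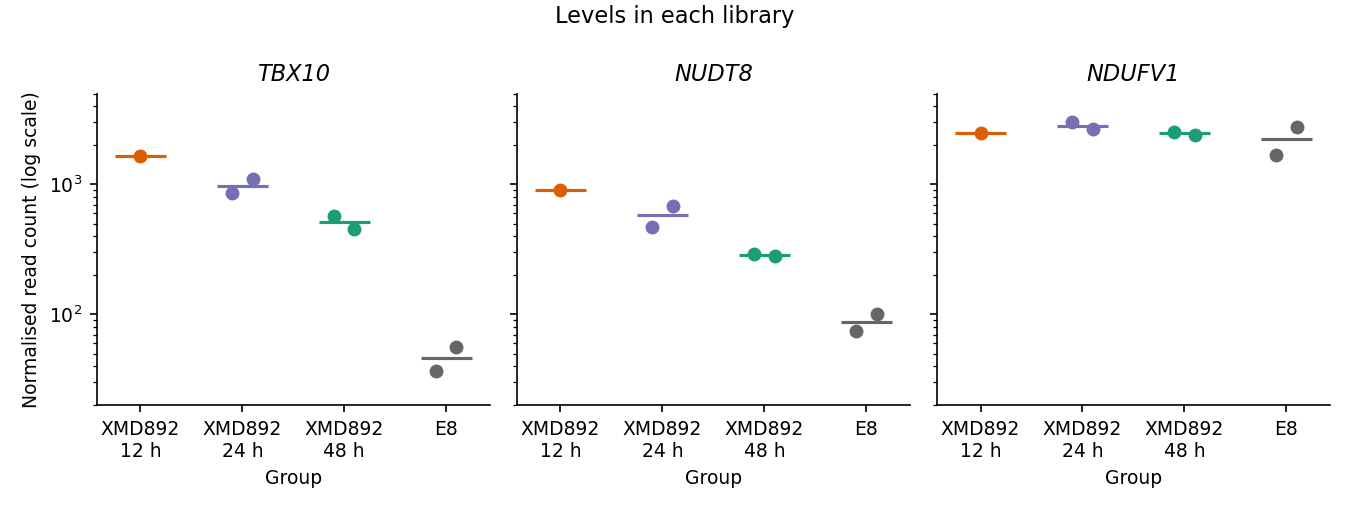
Normalised read counts (log axis) of TBX10, NUDT8 and NDUFV1 in the 7 libraries. Each point is 1 library and each bar a group mean, for XMD892 at 12 h, 24 h and 48 h and for E8. TBX10 and NUDT8 stand highest at 12 h and lowest in E8, while the NDUFV1 points of E8, at 1695 and 2747, lie on both sides of the XMD892 points at 12 h and 48 h.

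NDUFV1, beyond NUDT8 and DOC2GP, did not share this pattern. Its normalised count was 2472 after 12 h of XMD892, 3001 and 2651 after 24 h, and 2530 and 2409 after 48 h, against 1695 and 2747 in E8. The E8 libraries lay further apart than any XMD892 pair, and each XMD892 group lay between them or overlapped them. The log2 difference from E8 was 0.20 ± 0.22 at 12 h, 0.39 ± 0.18 at 24 h and 0.19 ± 0.18 at 48 h, with limma adjusted p = 0.65, 0.15 and 0.52. NDUFV1 was called at none of these times, where 7.46% of tested genes were called in either direction at 12 h, 16.2% at 24 h and 11.5% at 48 h. E8 replicate 1 sets the sign at 12 h and 48 h: without it both differences were -0.15, and without E8 replicate 2 the differences were 0.54, 0.73 and 0.54 at 12 h, 24 h and 48 h, all called (adjusted p = 0.013, 8.1e-05 and 0.0029). Across 15991 genes the difference between the E8 libraries ran with transcript GC content (Spearman -0.64, as a description), and NDUFV1 has a transcript GC of 59.4%; with the GC trend removed it was still not called at any time.

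Both genes were highest in the 1 library of 12 h, the earliest time here, and lower in the libraries of later times. The choice of members did not use these contrasts between times, although it shares libraries with them. Between 48 h and 24 h, TBX10 averaged 512 ± 81.2 and 980 ± 163 (SD, n = 2 each) and fell by 0.94 ± 0.21 (SE) on the log2 scale, with limma adjusted p = 0.023. NUDT8 averaged 288 ± 7.06 at 48 h and 577 ± 147 at 24 h and fell by 0.98 ± 0.21, with adjusted p = 0.016. NDUFV1 averaged 2470 ± 85.6 at 48 h and 2826 ± 248 at 24 h, and its difference of -0.19 ± 0.18 was not called (adjusted p = 0.72). In this contrast 0.856% of tested genes were called lower (140), 0.349% higher and 1.2% in either direction, and 25.2% had both libraries of 48 h below both of 24 h, as TBX10 and NUDT8 had. These calls need most of the libraries: TBX10 lost its call without 24 h replicate 2 (-0.76, adjusted p = 0.15), without 48 h replicate 1 (-1.10, 0.072) and without 48 h replicate 2 (-0.77, 0.23). NUDT8 lost it in the same 3 cases (-0.72, adjusted p = 0.23; -1.003, 0.15; -0.95, 0.11).

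Between 24 h and 12 h, where 12 h is 1 library that limma assumes to vary like the other groups, neither fall passed the test. TBX10 differed by -0.77 ± 0.25 (adjusted p = 0.23) and NUDT8 by -0.68 ± 0.25 (adjusted p = 0.31), and in this contrast 0.391% of tested genes were called, 0.263% higher and 0.128% lower. Both genes had each library of 24 h below that of 12 h, as did 38.6% of tested genes. With the GC trend removed both passed, at -0.96 (adjusted p = 0.032) for TBX10 and -1.11 (adjusted p = 0.034) for NUDT8. NDUFV1 differed by 0.19 (adjusted p = 0.81).

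Per kilobase of exon, TBX10 had the higher level of the pair with XMD892 and the lower level in E8. Its mean normalised count per kilobase was 1070 at 12 h, 633 at 24 h and 330.5 at 48 h, against 30.0 in E8. That of NUDT8 was 616 at 12 h, 391 at 24 h and 195 at 48 h, against 59.6 in E8. NDUFV1 had 489 at 12 h, 559 at 24 h and 488 at 48 h, against 439 in E8. By this measure TBX10 stood above NDUFV1 at 12 h and 24 h and below it at 48 h and in E8, and NUDT8 stood above it at 12 h only. Exon length here joins all annotated transcripts of a gene, 5057 bases over 29 transcripts for NDUFV1 and 1548 bases over 1 for TBX10. The order against NDUFV1 depends on that length, and levels of single transcripts were not measured. The ratio of TBX10 to NUDT8 counts, not scaled for length, was 1.82 after 12 h, 1.83 and 1.61 after 24 h, and 1.95 and 1.61 after 48 h, against 0.494 and 0.553 in E8. The ratio thus lay between 1.61 and 1.95 in the 5 XMD892 libraries, while TBX10 itself ranged from 454 to 1656 among them. Both genes were chosen for their rise over E8, so nothing is read from the lower ratio in E8. How steady the ratio of other gene pairs was in these libraries was not counted.

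Above the E8 mean, TBX10 gained 1610 normalised counts after 12 h, 818 and 1049 after 24 h, and 523 and 408 after 48 h. NUDT8 gained 820 after 12 h, 385 and 593 after 24 h, and 205 and 195 after 48 h. For each count that TBX10 gained, NUDT8 gained 0.510 after 12 h, 0.471 and 0.565 after 24 h, and 0.392 and 0.478 after 48 h. NUDT8 thus had between 0.392 and 0.565 of the gain of TBX10 in each of the 5 libraries. These gains use the E8 values that chose the pair and were not set beside those of other gene pairs, so they are a description. Not scaled for length, the NUDT8 count was 36.7% of that of NDUFV1 after 12 h, 15.8% and 25.7% after 24 h, and 11.6% and 11.7% after 48 h, against 4.38% and 3.70% in E8.

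**Figure D2:**
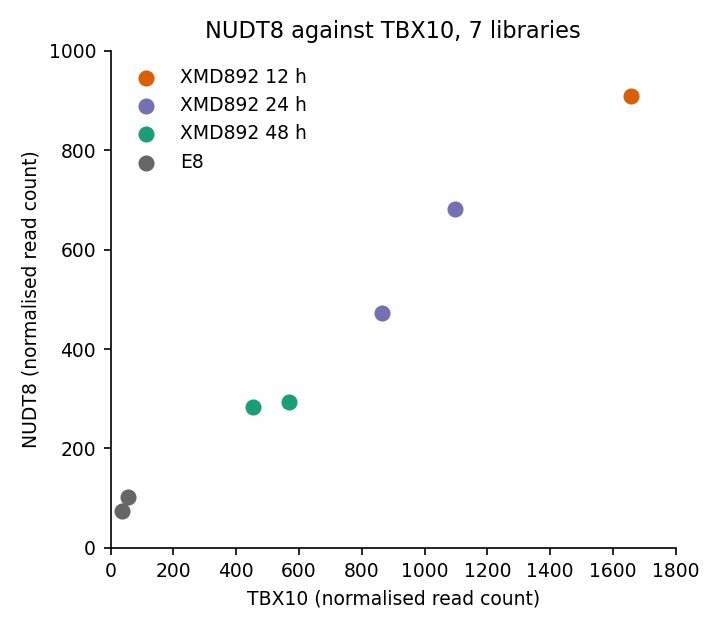
Normalised read count of NUDT8 (vertical axis) against that of TBX10 (horizontal axis), both linear, with 1 point per library. The XMD892 points run upward from 48 h through 24 h to 12 h, and both E8 points lie at the lower left, with TBX10 at 36.7 and 56.2.

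A gene count holds no reads by position or by splice junction, so reads that span TBX10 and NUDT8, and reads from between them, were not analysed here. Whether NUDT8 reads came from its own start or from RNA that began in TBX10 was not tested. The strand setting of the counting is not given in the sources used here, but TBX10 and NUDT8 are on the same strand, and strand does not separate them.

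No other tested gene of the neighbourhood had a log2 difference from E8 as large as those of TBX10 and NUDT8. That pair was chosen for its rise, so this is a description only. Within 250 kb of the TBX10 start the annotation has 39 genes, 18 of them in the table and 14 tested, which leaves 12 besides TBX10 and NUDT8. At 12 h limma called 0 of the 12 (0 at an unadjusted p under 0.05, and 0 by edgeR and by DESeq2). At 48 h it called 0, with 2 at an unadjusted p under 0.05. At 24 h it called 2, with 6 of the 12 at an unadjusted p under 0.05, while edgeR called 1, lower, and DESeq2 called 0. Limma called PPP1CA, a catalytic subunit of protein phosphatase 1, higher at 4637 against 3423 in E8 (0.46 ± 0.16, adjusted p = 0.05, lost in 14 of 18 alternatives, among them without E8 replicate 1, at 0.20, and without either library of 24 h or of 48 h). It called DOC2GP lower at 11.4 against 30.9 in E8 (-1.36 ± 0.45, adjusted p = 0.042, lost in 7 of 17 alternatives, at -1.50 and -1.23 without E8 replicate 1 or 2, at -1.49 and -1.24 without 24 h replicate 1 or 2, and by p alone without 48 h replicate 2). The share of all tested genes called higher was 2.56% at 12 h, 8.66% at 24 h and 5.08% at 48 h, and the share called lower was 4.89%, 7.56% and 6.45%. The calls among the 12 neighbours lie near those shares.

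The median log2 difference of the 12 neighbours from E8 was -0.09 at 12 h, 0.36 at 24 h and 0.27 at 48 h, beside 0.02, 0.01 and 0.02 over all tested genes. No neighbour had a difference above 1.07 at 12 h, 0.92 at 24 h or 0.71 at 48 h. GSTP1, a glutathione transferase and the gene with the highest count of those tested in the window, had 16809 at 12 h, 19802 ± 776 at 24 h and 17939 ± 280 at 48 h, against 18812 ± 3790 in E8. ALDH3B2, an aldehyde dehydrogenase gene upstream of TBX10, fell under the expression filter. Its normalised count was 1.07 after 12 h of XMD892, 8.33 and 7.48 after 24 h, and 7.56 and 0.992 after 48 h, against 6.98 and 14.9 in E8. Its XMD892 values were at or below the higher E8 value in all 5 libraries, so a rise like that of TBX10 was not seen there. Between 48 h and 24 h limma called 0 of the 12 (0 at an unadjusted p under 0.05), and between 24 h and 12 h it called 0 (3 at an unadjusted p under 0.05, and 0 by edgeR and by DESeq2).

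**Figure D3:**
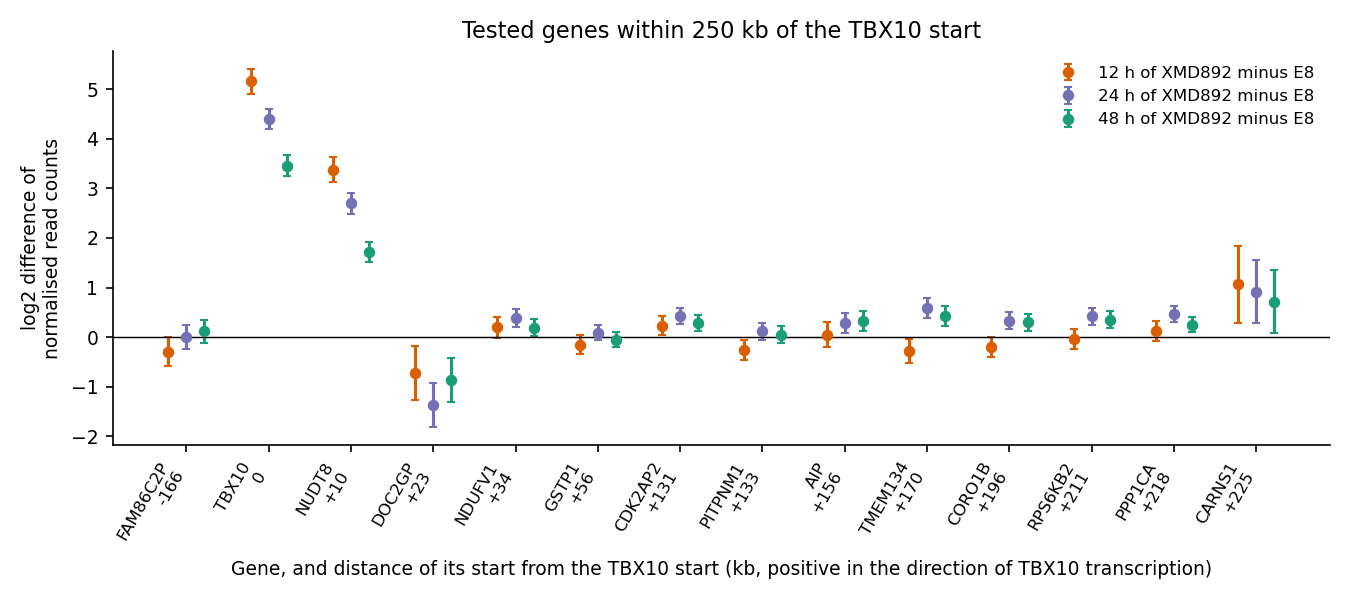
Log2 difference from E8 (vertical axis, ± SE) of the 14 tested genes within 250 kb of the TBX10 start, by distance in kilobases, with 1 colour each for XMD892 at 12 h, 24 h and 48 h. TBX10 (5.16, 4.39 and 3.46) and NUDT8 (3.37, 2.69 and 1.72) stand above the others, whose differences lie between -1.36 and 1.07.

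None of the other 7 tested T-box genes was called higher at any of the 3 times. Of all tested genes, 2.56% were called higher at 12 h, 8.66% at 24 h and 5.08% at 48 h, so that none among 7 lies near that background. Of the 17 genes listed, 11 are in the table and 8 were tested, so 7 remain beside TBX10. At 48 h limma called 0 of the 7 higher and 2 lower, where 5.08% of all tested genes were called higher and 6.45% lower, and their median log2 difference was -0.44, beside 0.02 over all tested genes. TBX1 is the relative whose loss in people underlies the heart and palate defects of DiGeorge syndrome. Its normalised count was 401 and 614 after 48 h of XMD892, against 828 and 966 in E8. It fell by 0.85 (adjusted p = 0.0041), and by 0.54 without 48 h replicate 1 (adjusted p = 0.17). TBX3, a factor of limb and heart development, averaged 5.81 ± 4.00 at 48 h and 37.3 ± 2.15 in E8 and was called lower (-2.63, adjusted p = 0.035), a call lost in 6 of 15 alternatives, among them without either E8 replicate (adjusted p = 0.091 and 0.061) and without 48 h replicate 2 (-1.99, adjusted p = 0.22). At 24 h TBX3 alone of the 7 was called, at 0 and 7.48 against 35.8 and 38.8 in E8 (-3.72, adjusted p = 0.0032, 0.21 by DESeq2). In that comparison 7.56% of all tested genes were called lower. At 12 h limma called 0 of the 7 (2 at an unadjusted p under 0.05, and 0 by edgeR and by DESeq2), beside 7.46% of all tested genes in either direction. Between 48 h and 24 h TBX1 was called lower (-0.75, adjusted p = 0.047), a call lost in 7 of 16 alternatives, among them without 24 h replicate 1 or 2 (adjusted p = 0.14 and 0.13) and without 48 h replicate 1 (-0.44, adjusted p = 0.76).

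Of the other NUDIX genes, NUDT7 was called higher than in E8 at all 3 times. Its log2 difference at 48 h was 2.10 ± 0.39 (SE), beside 1.72 ± 0.21 for NUDT8, and whether these differ was not tested. The E8 values of NUDT7 rest on 11 and 13 reads. All 23 listed NUDIX genes were tested, and limma called 1 of the 22 others higher at 12 h, 6 at 24 h and 2 at 48 h, with 0 lower at any of these times. Of all tested genes, 2.56% were called higher at 12 h, 8.66% at 24 h and 5.08% at 48 h, so that 1 of 22 and 2 of 22 lie near that background. At 24 h edgeR called 4 of the 22 higher and DESeq2 called 3. The shares above are those of limma, so no background stands beside the counts of these other tools. Their median log2 difference was 0.09 at 12 h, 0.19 at 24 h and 0.30 at 48 h, beside 0.02, 0.01 and 0.02 over all tested genes. NUDT7, the peroxisomal coenzyme A hydrolase, had a normalised count of 54.7 after 12 h, 45.8 and 27.1 after 24 h, and 55.1 and 39.7 after 48 h, against 9.60 and 10.7 in E8. It was higher at all 3 times, by 2.32 (adjusted p = 0.0039), 1.70 (adjusted p = 0.0053, 0.098 without 24 h replicate 1) and 2.10 (adjusted p = 0.0011). NUDT14, which hydrolyses UDP-glucose, averaged 489 ± 41.5 at 48 h and 248 ± 101 in E8 and rose by 1.04 (adjusted p = 0.0032). At 24 h NUDT14 rose by 1.14 (adjusted p = 0.0014). NUDT3, a diphosphoinositol polyphosphate hydrolase, was called higher at 24 h (1.39, adjusted p = 0.0051), a call lost without E8 replicate 1 (0.58, adjusted p = 0.061) and by DESeq2 (adjusted p = 0.34). NUDT16L1 was also called at 24 h (0.69, adjusted p = 0.011), a call lost without E8 replicate 1 (0.41, adjusted p = 0.076) and without 24 h replicate 1 (0.61, adjusted p = 0.095). The calls of NUDT18 (0.86, adjusted p = 0.045) and NUDT22 (0.57, adjusted p = 0.048) at 24 h were lost in 12 and 11 of 18 alternatives, among them without E8 replicate 1 (0.57 and 0.23) and without either 24 h replicate. NUDT19, the other peroxisomal coenzyme A hydrolase, averaged 54.7 at 12 h and 64.3 at 48 h, against 54.1 in E8, and was not called at those times (adjusted p = 0.98 and 0.64).

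**Figure D4:**
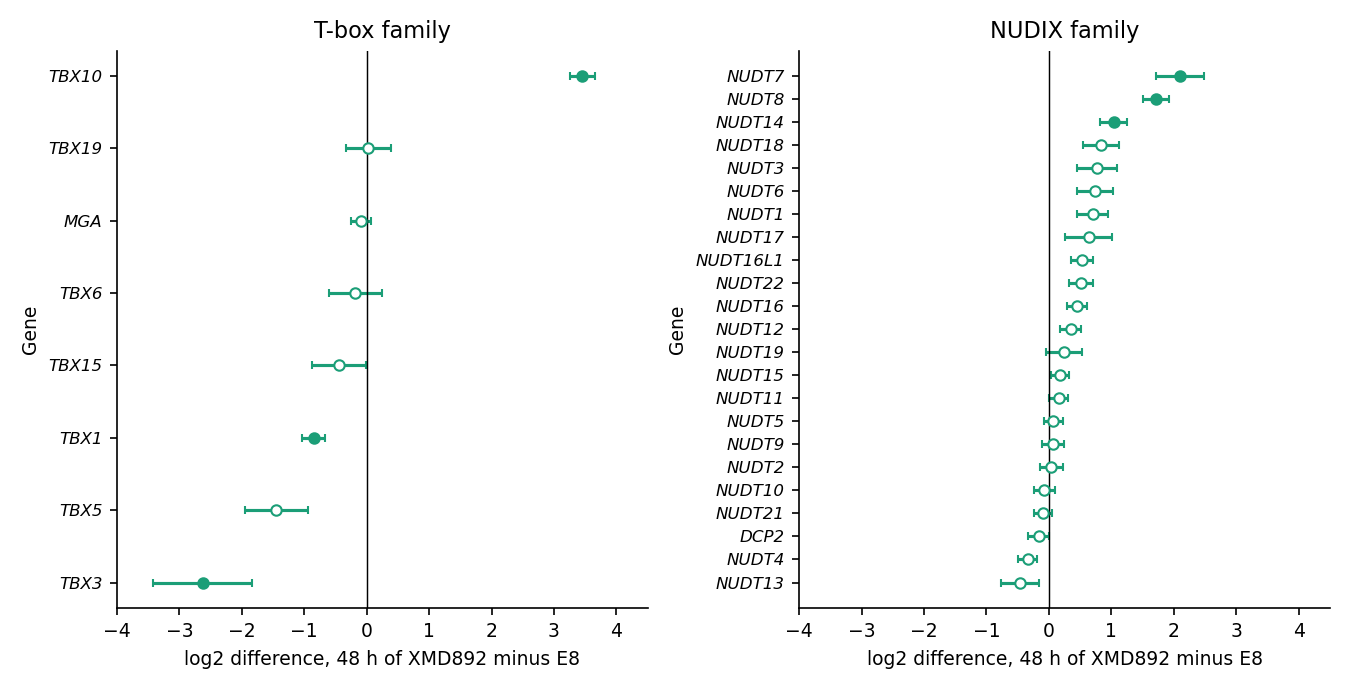
Log2 difference between 48 h of XMD892 and E8 (± SE) for the tested T-box genes and NUDIX genes. Filled points were called by limma at an adjusted p under 0.05, with TBX10 and NUDT8 drawn filled although they were chosen for their rise, and open points were not called. TBX10 at 3.46 stands apart from the other T-box genes, and NUDT7 at 2.10 ± 0.39 lies near NUDT8 at 1.72 ± 0.21.

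Around coenzyme A, 16 of 18 listed genes of its synthesis and breakdown were tested, and of the 15 others than NUDT8 only NUDT7 was called at each of the 3 times against E8, a share no larger than the 7.46%, 16.2% and 11.5% of all tested genes called at 12 h, 24 h and 48 h. The median log2 difference of the 15 was 0.10 at 12 h, 0.22 at 24 h and 0.17 at 48 h, beside 0.02, 0.01 and 0.02 over all tested genes. The 7 nuclear core subunits of complex I, NDUFV1 among them, gave 0 limma calls at 12 h, 24 h and 48 h (0, 4 and 1 at an unadjusted p under 0.05, and 0 by edgeR and by DESeq2 at 12 h and 24 h), and their median log2 differences were 0.08, 0.34 and 0.21. Of the 11 tested genes of the N module, the part of complex I that takes up electrons from NADH, NDUFA2, an accessory subunit, was the 1 called, higher at 24 h (0.80, adjusted p = 0.0046) and at 48 h, with 959 ± 40.9 against 470 ± 131 in E8 (1.06, adjusted p = 0.00046), where 8.66% and 5.08% of all tested genes were called higher. Of 16 listed genes of aminoacylases and the mercapturate pathway to which ACY3 belongs, 7 were tested, and at 48 h 1 was higher and 2 lower, where 5.08% of all tested genes were higher and 6.45% lower; their median log2 difference was -0.05, beside 0.02 over all tested genes. GSTO1, a glutathione transferase of the omega class, was lower at all 3 times, by 0.78, 0.91 and 0.66 at 12 h, 24 h and 48 h (adjusted p = 0.023, 0.0011 and 0.013; at 48 h 0.14 without 48 h replicate 1 and 0.064 without replicate 2). GGT1, which cleaves glutathione outside the cell, was lower at 12 h (-1.07, adjusted p = 0.027, 0.11 by DESeq2) and 48 h (-0.85, adjusted p = 0.023, lost without either 48 h replicate or E8 replicate 1). GSTM3, another glutathione transferase, was called higher at 48 h (1.003, adjusted p = 0.026), a call lost without either 48 h replicate or E8 replicate 1.

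The genes whose levels ran most like TBX10 were sought among 12715 others with a mean normalised count of at least 50, by Pearson's r of log2(normalised count + 1) over the 7 libraries. The libraries share their treatment and time, so r is a description only. The 5 highest were HIST1H2BD (0.997), NRXN3 (0.992), MRNIP (0.992), UFD1 (0.991) and TTPAL (0.986). NUDT8 had rank 11 with 0.982, and NDUFV1 had rank 3255 with 0.567. For NUDT8 the 5 highest were HIST1H4H (0.993), UFD1 (0.988), NFATC2IP (0.985), DNAJC30 (0.984) and HIST1H2AC (0.983), with TBX10 next at rank 6. The sizes differed widely: HIST1H2BD, a histone H2B gene, averaged 234 at 12 h, 157 at 24 h and 126 at 48 h, against 33.9 in E8, whereas MRNIP, a DNA repair factor, averaged 659 at 12 h, 634 at 24 h and 579 at 48 h, against 399 in E8. HIST1H4H, a histone H4 gene, averaged 597 at 12 h, 392 at 24 h and 212 at 48 h, against 75.1 in E8. NRXN3, UFD1 and NFATC2IP were called against E8 at no time. Their log2 differences at 12 h were 0.80, 0.40 and 0.46 (limma, adjusted p = 0.12, 0.19 and 0.12). The rest of these top genes were called higher at each time, but all were picked for running like TBX10 or NUDT8.

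How often a gene rises with its upstream neighbour was counted over all tandem pairs on the same strand with a gap of at most 5 kb and both genes tested, 1785 in all. At 12 h the upstream gene was called higher with a log2 difference of 1 or more in 26 pairs, and the downstream gene was called higher in 6 of these (23.1%), beside 2.56% of all tested genes. The counts were 12 of 45 (26.7%) at 24 h, beside 8.66%, and 3 of 31 (9.68%) at 48 h, beside 5.08%. With any size of call in the upstream gene, the downstream gene was called higher in 7 of 58 pairs (12.1%) at 12 h, 62 of 243 (25.5%) at 24 h and 15 of 118 (12.7%) at 48 h. The upstream gene was called higher in 58 of all 1785 pairs at 12 h, 243 at 24 h and 118 at 48 h. The share of downstream genes called higher over all 1785 pairs was not counted. The share of all tested genes is thus not a matched background for genes in close pairs. TBX10 and NUDT8 are 1 of the pairs in each count, and the pairs share libraries, so these shares are a description. Downstream genes with a log2 difference of 1 or more were counted too. With any size of call in the upstream gene there were 12 at 12 h, 22 at 24 h and 7 at 48 h. With an upstream call and a log2 difference of 1 or more there were 11 of 26, 10 of 45 and 4 of 31. The 4 pairs at 48 h were TBX10 with NUDT8 (3.46 and 1.72), PSENEN with LIN37 (1.77 and 1.16), HIST1H2AI with HIST1H3H (2.11 and 1.35), and the mitochondrial tRNA genes MT-TH with MT-TS2 (1.31 and 1.70), which adjoin each other.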

How the data were processed

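Poly(A) RNA of 7 H1 libraries was sequenced in pairs. Values were deposited as a signal for each gene, that is read counts scaled by the authors with 1 factor for each library; Trimmomatic 0.36, STAR, featureCounts 1.5.3, DESeq2 1.26.0 and hg38 are named in the submitters' processing notes, while the annotation and strand setting are not given in the sources used here. Divided by the smallest step of a library, 100% of values came out whole (tolerance 0.1), which gave whole reads. 2 further columns match no sample and were not used.

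Genes with a mean of at least 10 (16351 of 19775) were taken to log2(value + 1), which understates changes of low genes, and a model with a mean for each group and a trended prior was fitted to all 7 libraries in limma 3.58.1 under R 4.3.3 (3 residual degrees of freedom, prior 18.4). Adjusted p-values are Benjamini-Hochberg over the whole table, and a call needs one under 0.05. edgeR 4.0.16 and DESeq2 1.42.0 were run on recovered reads of E8, 12 h and 24 h only. GENCODE 29 on GRCh38 matched 19283 symbols (97.5%), and promoters came from RefSeq. Named genes were the members, genes called in the window, up to 4 called genes of each list, the 5 genes most like TBX10 and NUDT8, and the tandem pairs at 48 h; GSTP1, ALDH3B2 and NUDT19 were named after their values were seen. The members and lists were chosen with earlier results of these data known. Same-numbered replicates did not deviate together (r of -0.035, -0.048 and -0.071 between groups), so the numbers do not pair the samples.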

Additional observations from a re-analysis of the deposited data

Results flagged for a closer look

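With XMD892, TBX10 was lower at 48 h than at 24 h: the log2 difference was -0.94 (limma, adjusted p = 0.023), and both libraries of 48 h lay below both of 24 h. For NUDT8 the same contrast gave -0.98 (adjusted p = 0.016), again with both libraries of 48 h below both of 24 h. They stand here because the difference of each gene from E8 differed between the times by this test. Both times were set against the same E8 libraries of 48 h, so a change in the effect of XMD892 and time in culture cannot be told apart. Both calls were lost without 24 h replicate 2 or without either 48 h replicate, as given with the results.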

How the results depend on the processing

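The rises of TBX10 and NUDT8 over E8 kept their direction under each alternative. TBX10 ran from 4.86 to 5.46 at 12 h, 4.09 to 4.69 at 24 h and 3.16 to 3.76 at 48 h on the log2 scale, and NUDT8 from 3.15 to 3.60, 2.40 to 2.96 and 1.49 to 1.94. Leaving out libraries, NUDT8 at 24 h was lowest at 2.40 (GC trend removed, without E8 replicate 2). The alternatives that removed the GC trend and an E8 replicate together were chosen after seeing the data. NDUFV1 against E8 ran from -0.15 to 0.54 at 12 h, 0.038 to 0.73 at 24 h and -0.15 to 0.54 at 48 h when libraries were left out; it turned negative without E8 replicate 1 at 12 h (-0.15) and 48 h (-0.15, and -0.038 with the GC trend removed too), and at 24 h gave 0.39 (adjusted p = 0.027) with the GC trend removed and without E8 replicate 2. Between 24 h and 12 h, TBX10 ran from -0.96 to -0.60 (-0.94 without 24 h replicate 2) and NUDT8 from -1.11 to -0.41 (-0.94) when libraries were left out, and with the GC trend removed they were -0.96 and -1.11. Without E8 replicate 1 or 2 this contrast of TBX10 passed at adjusted p = 0.0087 and 0.01, and that of NUDT8 at 0.041 and 0.045. Between 48 h and 24 h TBX10 ran from -1.11 to -0.76 and NUDT8 from -1.24 to -0.72.

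Over all genes, limma called 1219 at 12 h, 2652 at 24 h and 1884 at 48 h against E8, 64 between 24 h and 12 h and 197 between 48 h and 24 h. DESeq2 called 709 at 12 h and 1515 at 24 h. With the GC trend removed the counts were 2717 at 12 h, 3400 at 48 h, 100 between 24 h and 12 h and 438 between 48 h and 24 h. Leaving out libraries gave 1021 to 2941 at 12 h, 1105 to 4917 at 24 h, 791 to 4057 at 48 h, 31 to 734 between 24 h and 12 h and 64 to 1045 between 48 h and 24 h. With the GC trend removed and without E8 replicate 1 there were 1915 at 12 h, 212 between 24 h and 12 h and 657 between 48 h and 24 h; without E8 replicate 2, there were 2554 at 12 h and 3113 at 48 h, with the same 212 and 657. With the replicate number as a block, 197 became 290 and 64 became 80, and none of the members' calls, nor those of the called window and list genes, changed; since the numbers do not pair the samples, this block has no basis in the design. Causes of these shifts were not tested. Count tests were not run for comparisons with 48 h. With 1 library at 12 h and 2 in the other groups, and 42 and 68 TBX10 reads in E8, folds over E8 rest on few reads.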
